A study of Mus musculus with 18 samples.

Results

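Cytochrome P450 enzymes and the proteins that work with them were described in left ventricle (LV) of mice. The group held 9 genes, Cyp2b10, Cyp1b1, Cyp4b1, Cyp2j6, Cyp2j9, Cyp27a1, Por, Ephx1 and Ephx2, out of 55450 genes in the count table, and all 9 were among the 16270 genes with enough counts to test. They were chosen by name with their levels and genotype differences in these data known, and the lower level of Cyp2b10 in Gαq hearts led the choice. For that reason values between genotypes are given for these 9 genes as a description, without p-values, counts of those past the threshold stand only beside the share of all genes, and tests are kept for the diet, which did not enter the choice.

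RNA was sequenced from 1 LV of each of 18 FVB/N mice in 4 groups. Gαq mice overexpress the alpha subunit of the G protein Gq, encoded by Gnaq, from a transgene active in the heart, and their WT littermates lack it. From 4 weeks of age and for 16 weeks, mice of each genotype ate control diet (CD) or chow that held 0.5 mg of ertugliflozin (ERTU), an inhibitor of the kidney glucose transporter SGLT2, per g. There were 4 mice in WT CD, 5 in WT ERTU, 5 in Gαq CD and 4 in Gαq ERTU, all taken at 20 weeks of age.

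P450 enzymes are haem proteins that insert 1 oxygen atom into drugs, steroids or fatty acids. Those in the endoplasmic reticulum receive electrons from NADPH through the reductase Por, whereas mitochondrial P450s such as Cyp27a1 receive them through ferredoxin. In the heart, epoxygenases of the Cyp2j and Cyp2c families turn arachidonic acid into epoxyeicosatrienoic acids, lipids that relax vessels and act on cardiomyocytes, and the soluble epoxide hydrolase Ephx2 converts these to diols. Cyp2b10 is best known as a liver gene switched on by drugs through the nuclear receptor CAR (Nr1i3).

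The stretches upstream of 3 of the genes are shown, Cyp2b10 because it differed most between genotypes, and Cyp1b1 and Cyp27a1 because their levels went together most closely from library to library. RefSeq promoters (GRCm38.p6) were matched for 8 of the 9 genes. Each window runs 5′ to 3′ on the strand of the gene from base -250 to base -51 before the RefSeq start, a length of 200 bases. Capitals mark GCGTG, the core bound by the aryl hydrocarbon receptor (AhR), or its complement CACGC. The windows are Cyp2b10 at chr7:25897408-25897607 (plus strand), Cyp1b1 at chr17:79715112-79715311 (minus strand) and Cyp27a1 at chr1:74713285-74713484 (plus strand).
Cyp2b10: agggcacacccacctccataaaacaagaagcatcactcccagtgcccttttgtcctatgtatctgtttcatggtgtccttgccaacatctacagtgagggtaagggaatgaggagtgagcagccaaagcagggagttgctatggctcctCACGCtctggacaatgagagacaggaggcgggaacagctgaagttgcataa
Cyp1b1: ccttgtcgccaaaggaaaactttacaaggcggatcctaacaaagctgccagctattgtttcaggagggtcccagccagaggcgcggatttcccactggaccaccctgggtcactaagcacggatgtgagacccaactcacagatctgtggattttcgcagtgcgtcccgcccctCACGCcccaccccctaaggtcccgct
Cyp27a1: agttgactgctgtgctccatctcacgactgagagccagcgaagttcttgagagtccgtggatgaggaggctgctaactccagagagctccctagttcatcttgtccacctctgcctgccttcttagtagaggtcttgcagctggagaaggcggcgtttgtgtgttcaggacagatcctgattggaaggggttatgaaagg

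The AhR core was present once in Cyp2b10 (bases -101 to -97) and once in Cyp1b1 (bases -76 to -72), and was not found in the Cyp27a1 window. It was present in 22.6% of the 32851 RefSeq promoter windows of this length. Of 3 other motifs searched on both strands, none matched in these 3 windows. They were TATAAA (the TATA box, in 9.14% of windows), AGGTCA (the half-site of nuclear receptors, in 11.4%) and TGACNNNGC (the core of the antioxidant response element, in 7.66%). The windows stop before the bases next to the RefSeq start, where a working TATA box lies. The search therefore cannot tell whether these genes have a TATA box. Bases farther upstream and sites with other letters were not searched, so it also cannot tell whether Cyp2b10 has a nuclear receptor site. The motifs do not contain one another, and a match is given as letters only, not as a bound site.

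Total counts per library ran from 15383566 to 20908363. Gnaq, read from the transgene and the endogenous gene together, lay at 45.5 to 229.7 CPM (counts scaled to the library total with TMM factors) in the 9 WT libraries and at 1641 to 11670 CPM in the 9 Gαq libraries. Among the Gαq CD libraries, library 10 stood apart with 1641 CPM, against 6304 to 11670 CPM in the other 4. All 10 markers of cardiomyocytes were above 1 CPM on average, with a summed level of 70900 CPM or more in each library. Libraries carry the numbers of the deposited tables, and no sequencing batch was given. In bulk tissue, fewer cells of a type and less RNA per cell cannot be told apart.

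All 9 genes were expressed at 1 CPM or more, on average and in each of the 18 libraries. The lowest single value was 1.02 CPM, Cyp2b10 in Gαq CD library 7, and the lowest mean was that of Cyp2j9, at 3.43 CPM. Since genes differ in length, levels were compared between genes as CPM per kb of exon. Ephx2 was highest at 127 CPM per kb and Ephx1 followed at 46. Cyp27a1 (20.4), Cyp4b1 (17.3) and Por (16) came next, and their order was not the same in every group, since Cyp4b1 stood at 23 CPM per kb against 18.1 for Cyp27a1 in WT ERTU and at 11.9 against 14.5 for Por in Gαq CD. Cyp2b10 averaged 8.92 CPM per kb, Cyp1b1 5.61, Cyp2j6 3.59 and Cyp2j9 1.03. Cyp2b10 was above Cyp1b1 in WT CD (13.2 against 4.01 CPM per kb) and below it in Gαq CD (1.74 against 6.09).

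**Figure D1:**
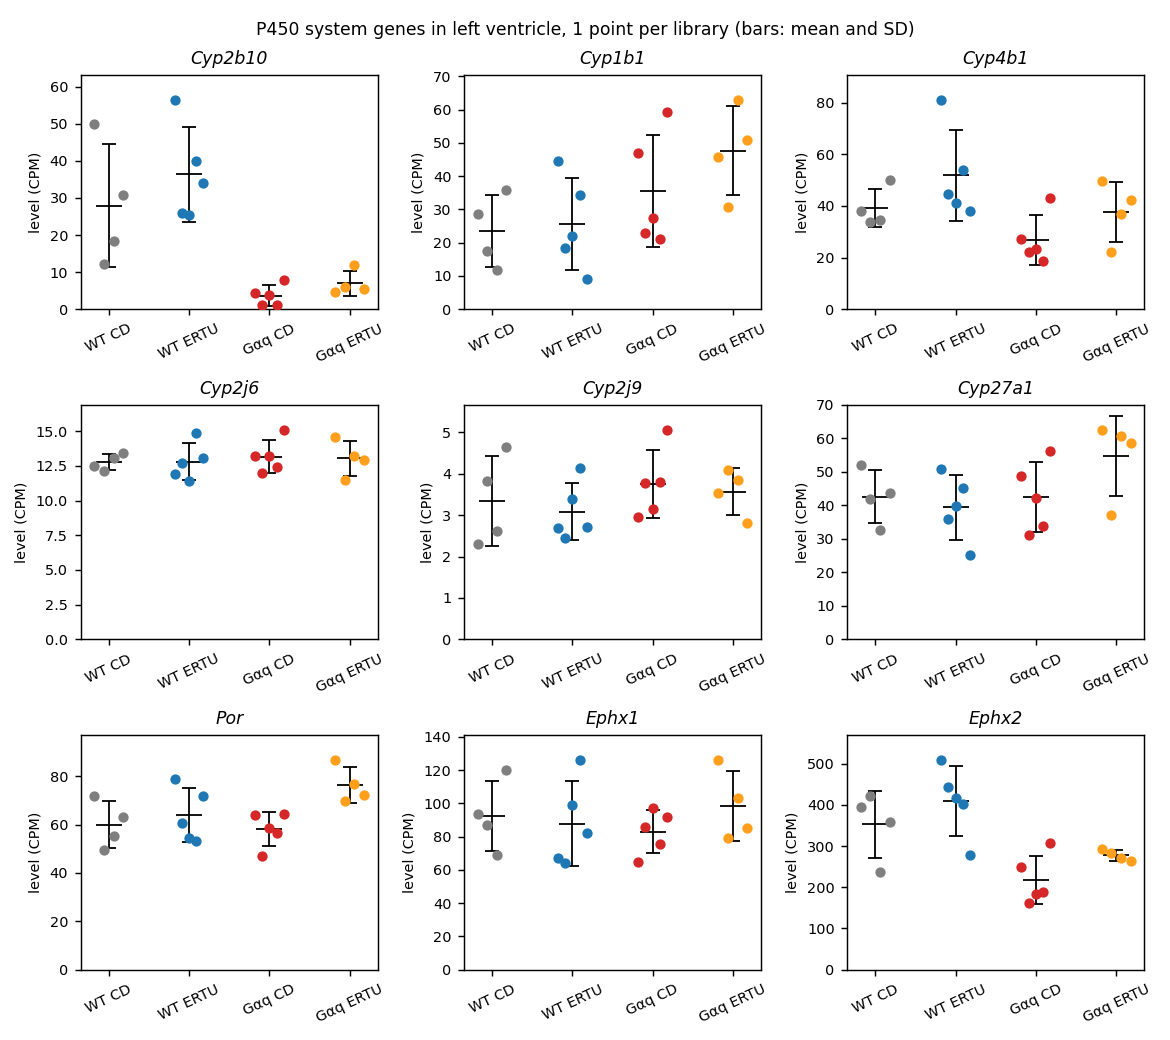
Level of each of the 9 genes in CPM (vertical axes, starting at 0) in the 4 groups, with 1 point per library and black bars for the mean and SD. Cyp2b10 lay between 1.02 and 11.9 CPM in the 9 Gαq libraries and between 12.3 and 56.5 CPM in the 9 WT libraries, while Cyp2j6 stayed between 11.4 and 15.1 CPM.

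Other P450 genes of the mouse were set beside the 6 described. Of 71 further P450 genes in 4 lists by function, 12 averaged 1 CPM or more, and 14 had no count in any library. Cyp2d22 was the highest of them, at 42.2 to 67.6 CPM. The other genes of the Cyp2b family, Cyp2b9, Cyp2b13, Cyp2b19 and Cyp2b23, had 0 counts in all 18 libraries, which allows a level of up to 0.0092 CPM (3 counts in 326044823, counting error only). Cyp2b10 was therefore the Cyp2b gene with counts here, with the limit that only uniquely aligned read pairs were counted, so pairs shared with a near-identical copy were dropped. The same held for the Cyp2j family, where Cyp2j6 and Cyp2j9 had counts throughout. Cyp2j5, Cyp2j8, Cyp2j11, Cyp2j12 and Cyp2j13 had 7 or fewer counts each over all libraries, and Cyp2c genes had 18 or fewer. Cyp2u1, which hydroxylates arachidonic acid, was present at 6.11 to 12.5 CPM.

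**Figure D2:**
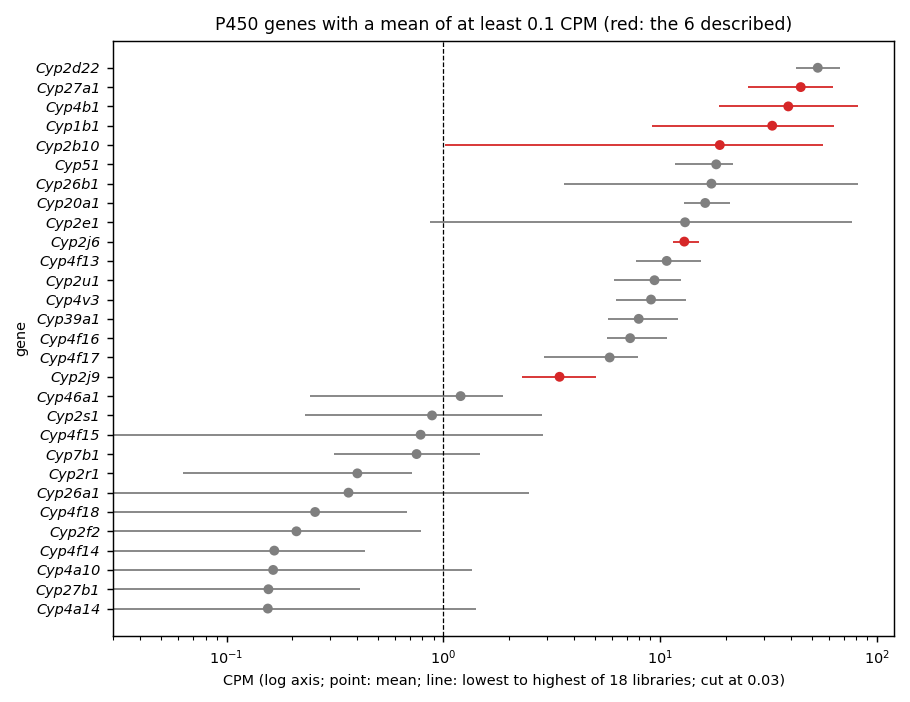
Mean level (points) and lowest to highest level over 18 libraries (lines) in CPM on a log axis for the 29 P450 genes that averaged at least 0.1 CPM, with the 6 described here in red and 1 CPM marked by the dashed line. Cyp2b10 spanned a wide range, from 1.02 to 56.5 CPM, as did Cyp26b1 (3.58 to 81.5 CPM) and Cyp2e1 (0.871 to 76.2 CPM).

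Cyp2b10 (ENSMUSG00000030483, chromosome 7, 25897620 to 25926624, plus strand, GRCm38) was the gene of the 9 that differed most between genotypes. It stood at 49.9, 12.3, 18.5 and 30.8 CPM in WT CD libraries 1, 2, 4 and 5, and at 56.5, 25.9, 25.4, 40.0 and 33.9 CPM in WT ERTU libraries 11 to 15. It stood at 4.24, 1.02, 3.89, 1.25 and 7.97 CPM in Gαq CD libraries 6 to 10, and at 4.51, 5.93, 11.9 and 5.47 CPM in Gαq ERTU libraries 16, 17, 18 and 20. Every Gαq library was below every WT library, although the highest, Gαq ERTU library 18 with 11.9 CPM, came close to the lowest WT CD library with 12.3 CPM. The edgeR log2 change in Gαq was -2.91 ± 0.47 (SE) on CD, a level 7.5-fold lower, and -2.39 ± 0.48 on ERTU, 5.23-fold lower. With both diets in the model it was -2.64 ± 0.33, 6.23-fold lower. Pooled over the 4 groups, Cyp2b10 also varied most within groups, with an SD of 0.85 on the log2 CPM scale against 0.13 to 0.7 for the other 8 genes. This did not hold in WT ERTU, where the SD was 0.48 for Cyp2b10 and 0.88 for Cyp1b1. The SD of Cyp2b10 was largest in Gαq CD, at 1.2, where libraries 7 and 9 held 21 counts each.

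Cyp2b10 did not pass the test for ERTU in either genotype. In WT its mean was 27.9 ± 16.6 CPM (SD, n = 4) on CD and 36.3 ± 12.8 CPM (SD, n = 5) on ERTU, and the groups overlapped. In Gαq hearts CD gave 3.67 ± 2.82 CPM (SD, n = 5) and ERTU gave 6.94 ± 3.33 CPM (SD, n = 4), again with overlap. The log2 change with ERTU in Gαq was 0.9 ± 0.49 (SE), with a 95% interval from -0.15 to 1.95 (edgeR quasi-likelihood test, Benjamini-Hochberg adjusted p = 0.656), and in WT it was 0.38 ± 0.43 (adjusted p = 1). Without WT CD library 1 the change in WT was 0.83, and without WT CD library 2 it was 0.14. Without Gαq CD library 10 the change in Gαq was 1.42, and without Gαq ERTU library 18 it was 0.52. The Gαq ERTU libraries remained below the WT CD libraries, at 4.51 to 11.9 CPM against 12.3 to 49.9 CPM.

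Cyp1b1 (ENSMUSG00000024087, chromosome 17, 79701537 to 79715061, minus strand) oxidizes oestrogens, fatty acids and carcinogens and is a classical AhR target. It stood at 28.5, 17.5, 11.8 and 35.8 CPM in WT CD, and at 44.7, 18.4, 21.9, 34.2 and 9.15 CPM in WT ERTU. It stood at 47.1, 22.9, 27.5, 21 and 59.2 CPM in Gαq CD, and at 45.9, 30.7, 63.0 and 50.8 CPM in Gαq ERTU. All groups overlapped their neighbours. The log2 change in Gαq was 0.61 ± 0.4 (SE) on CD and 0.89 ± 0.39 on ERTU, opposite in sign to that of Cyp2b10. With ERTU it was 0.14 ± 0.4 in WT and 0.42 ± 0.39 in Gαq (edgeR adjusted p = 1 and 0.77). AhR itself (Ahr) lay between 8.1 and 17.4 CPM, and Cyp1a1, another AhR target, had 3 counts in all libraries together.

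Cyp4b1 (ENSMUSG00000028713, chromosome 4, 115624725 to 115647723, minus strand) hydroxylates fatty acids and some toxins. It stood at 38.1, 33.9, 34.6 and 50.0 CPM in WT CD, at 81.2, 44.7, 41.3, 54.1 and 37.9 CPM in WT ERTU, at 27.0, 22, 23.4, 18.7 and 43.2 CPM in Gαq CD, and at 49.8, 22.1, 36.7 and 42.4 CPM in Gαq ERTU. In Gαq CD, 4 of 5 libraries were below the lowest WT CD library, and library 10, with the least Gnaq of the group (1641 CPM), was not. The log2 change in Gαq was -0.54 ± 0.25 (SE) on CD and -0.46 ± 0.26 on ERTU. With ERTU it was 0.41 ± 0.26 in WT and 0.49 ± 0.25 in Gαq, with overlap in both. Over both genotypes the ERTU change was 0.45 ± 0.18 with an unadjusted p of 0.0191, and it did not pass over all genes (edgeR adjusted p = 0.639).

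The Cyp2j genes Cyp2j6 and Cyp2j9 were level across the groups. Cyp2j6 (ENSMUSG00000052914, chromosome 4, 96516138 to 96553661) lay between 12.1 and 13.4 CPM in WT CD, 11.4 and 14.9 in WT ERTU, 12 and 15.1 in Gαq CD, and 11.5 and 14.6 in Gαq ERTU. Its log2 change was between -0.02 and 0.05 in each pairwise comparison, with a 95% interval from -0.23 to 0.2 for ERTU in Gαq. Cyp2j9 (ENSMUSG00000015224, chromosome 4, 96568429 to 96591578) rested on 40 to 108 counts per library, so its values are less certain. Its mean was 3.34 ± 1.09 CPM (SD) on CD and 3.08 ± 0.691 CPM on ERTU for WT, and 3.75 ± 0.824 CPM on CD and 3.57 ± 0.562 CPM on ERTU for Gαq. Its log2 changes were 0.17 ± 0.22 (SE) in Gαq on CD and -0.08 ± 0.22 with ERTU in Gαq, with overlap throughout.

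Cyp27a1 (ENSMUSG00000026170, chromosome 1, 74713574 to 74737892, plus strand) is the mitochondrial enzyme that hydroxylates the side chain of cholesterol. It stood at 52.0, 42.0, 32.6 and 43.7 CPM in WT CD, at 50.7, 36.0, 39.8, 45.2 and 25.3 CPM in WT ERTU, at 48.8, 31.1, 42.3, 33.9 and 56.3 CPM in Gαq CD, and at 62.5, 37.1, 60.8 and 58.6 CPM in Gαq ERTU. The Gαq ERTU group was the highest in 3 of its 4 libraries, and the fourth lay within the range of the other groups. The log2 change in Gαq was 0 ± 0.2 (SE) on CD and 0.47 ± 0.2 on ERTU. With ERTU it was -0.11 ± 0.2 in WT and 0.37 ± 0.2 in Gαq (edgeR adjusted p = 1 and 0.656).

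Por (ENSMUSG00000005514, chromosome 5, 135670033 to 135735326, plus strand), the electron donor of the microsomal P450s, was the 1 gene of the 9 whose Gαq ERTU and Gαq CD libraries did not overlap. It stood at 64.0, 47.2, 58.6, 56.7 and 64.3 CPM in Gαq CD and at 86.7, 69.7, 76.8 and 72.4 CPM in Gαq ERTU. All 4 ERTU libraries were above all 5 CD libraries, a pattern that 0.744% of all genes tested showed in this direction. The log2 change was 0.39 ± 0.13 (SE), 1.31-fold, with a 95% interval from 0.11 to 0.67. The exact two-sided permutation test over all splits of these libraries gave p = 0.0159, the smallest it can give. It was 1 of 18 such tests, covering the 9 genes in each genotype, and was not adjusted for their number. The next smallest p of this permutation test was 0.111, for Ephx2 in Gαq. For Por, edgeR gave an unadjusted p of 0.00713 and an adjusted p of 0.653, so the change did not pass over all genes. In WT, Por stood at 72.0, 49.6, 55.1 and 63.2 CPM on CD and at 78.9, 60.5, 54.4, 53.3 and 72.0 CPM on ERTU, with overlap and a log2 change of 0.09 ± 0.13. The difference between the ERTU changes of the 2 genotypes was 0.3 ± 0.19 and did not pass (interaction, edgeR adjusted p = 1). In WT none of the 9 genes separated the diets, beside 0.756% of all genes that did so in either direction. The share of 0.744% given for Gαq counts the higher direction only, so the 2 shares are not alike. Between genotypes Por differed by -0.04 ± 0.13 on CD and 0.26 ± 0.13 on ERTU on the log2 scale.

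Of the epoxide hydrolases, Ephx2 was lower in Gαq and Ephx1 was not. Ephx2 (ENSMUSG00000022040, chromosome 14, 66084374 to 66124500, minus strand) stood at 395, 421, 238 and 358 CPM in WT CD, at 509, 444, 416, 403 and 278 CPM in WT ERTU, at 248, 162, 183, 188 and 307 CPM in Gαq CD, and at 293, 282, 270 and 264 CPM in Gαq ERTU. In Gαq CD, 3 of 5 libraries were below the lowest WT CD library, and in Gαq ERTU 2 of 4 were below the lowest WT ERTU library. The log2 change in Gαq was -0.7 ± 0.19 (SE) on CD, 1.62-fold lower, and -0.56 ± 0.19 on ERTU, 1.48-fold lower. With ERTU it was 0.22 ± 0.19 in WT and 0.35 ± 0.19 in Gαq (edgeR adjusted p = 1 and 0.656), with overlap in both genotypes.

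Ephx1 (ENSMUSG00000038776, chromosome 1, 180976210 to 181020904, minus strand), the microsomal hydrolase of drug epoxides, averaged 92.4 ± 21.2 CPM (SD) on CD and 87.6 ± 25.4 CPM on ERTU for WT, and 82.9 ± 13.1 CPM on CD and 98.5 ± 21.1 CPM on ERTU for Gαq. Its lowest library had 64 CPM, and all groups overlapped. The log2 change in Gαq was -0.15 ± 0.19 (SE) on CD and 0.17 ± 0.19 on ERTU.

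**Figure D3:**
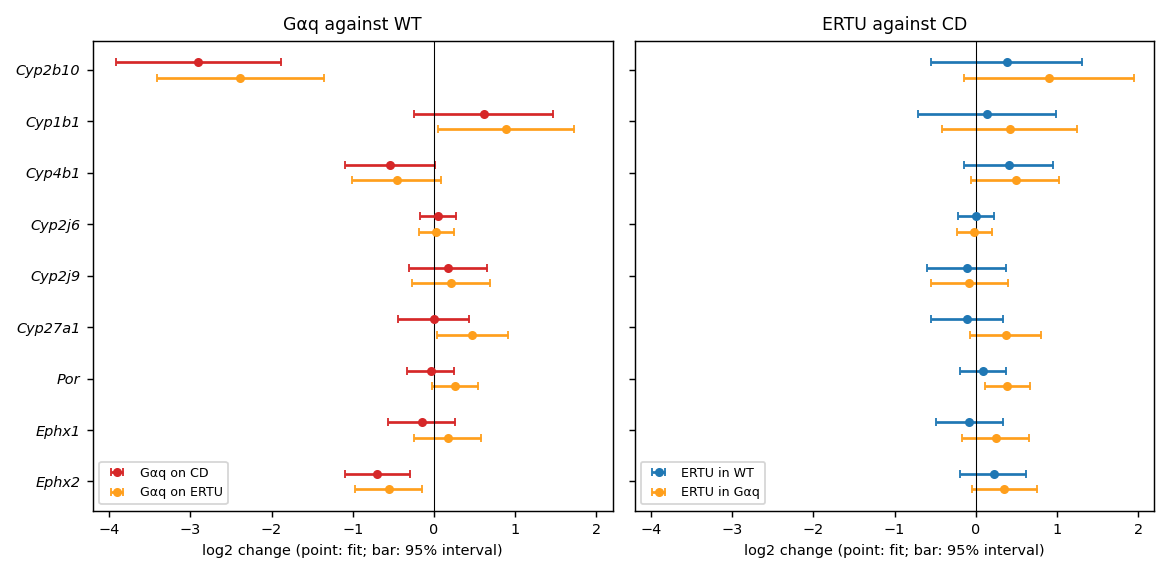
Log2 change from the edgeR fits (points) with 95% intervals (bars) for the 9 genes, Gαq against WT on each diet (left) and ERTU against CD in each genotype (right). Cyp2b10 lay farthest from 0 at -2.91 on CD and -2.39 on ERTU, and on the right the interval for Por in Gαq, 0.11 to 0.67, was the only one that did not reach 0.

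Set against all genes, 2 of the 9 genes, Cyp2b10 and Ephx2, had an adjusted p under 0.05 by genotype with diet in the model (edgeR quasi-likelihood test with Benjamini-Hochberg adjustment), where 19.6% of the genes tested did. On CD the same 2 genes were called, against 8.1% of all genes, and on ERTU Cyp2b10 alone, against 8.17%. Since the list was drawn with this comparison known, nothing is read from these counts. The call of Ephx2 depended on single libraries, being lost on CD without any one of WT CD libraries 1 and 2 and Gαq CD libraries 7, 8 and 9, and gained on ERTU without any one of WT CD library 4, Gαq CD library 10 and WT ERTU library 15. Cyp2b10 was the 1 gene of the 9 whose genotypes did not overlap on CD or on ERTU, where 9.29% and 10.9% of all genes did not overlap.

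For the diet, 0 of the 9 genes were called over both genotypes, in WT, in Gαq or in the interaction (edgeR), and DESeq2 called none of the 9 either. Over all 16270 genes the share called was 0% over both genotypes, 0% in WT, 0.00615% (1 gene) in Gαq and 0% in the interaction. At an unadjusted p under 0.05 there were 1252, 365, 1240 and 313 genes in these 4 comparisons, among them 3 of the 9 genes over both genotypes (Cyp4b1, Por and Ephx2), 0 in WT, 1 in Gαq (Por) and 0 in the interaction. Por changed over both genotypes by 0.24 ± 0.1 (SE, edgeR adjusted p = 0.639) and Ephx2 by 0.28 ± 0.13 (adjusted p = 0.64). The median log2 change of the 9 genes with ERTU was 0.24 over both genotypes, 0.09 in WT and 0.37 in Gαq, where 7 of 9 were above 0. The median of all genes was -0.002, 0.005 and -0.005. Several of the 9 genes moved together within groups, so they are not independent readings of the diet. Nothing is read from these medians or from the count above 0.

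Within groups, several of the 9 genes were high or low in the same libraries. After the group mean was subtracted from log2 CPM, 9 of the 36 pairs of genes had a Pearson r of 0.6 or more over the 18 libraries. Cyp1b1 and Cyp27a1 were closest (r = 0.91, Spearman rho = 0.91), and r was 0.86 without the 2 libraries with the most extreme Cyp1b1. Cyp4b1 went with Cyp27a1 (r = 0.81, rho = 0.85) and with Cyp1b1 (r = 0.8, rho = 0.87). Ephx2 went with Cyp27a1 (r = 0.77) and Cyp1b1 (r = 0.76), and Cyp2b10 with Cyp1b1 (r = 0.67), Por (r = 0.65) and Cyp27a1 (r = 0.63). The high libraries were WT ERTU library 11 and Gαq CD library 10, and low ones for at least Cyp1b1 and Cyp27a1 were WT CD library 4, WT ERTU library 15, Gαq CD libraries 7 and 9 and Gαq ERTU library 17. These are descriptions, since the genes share libraries, scaling and depth in each point.

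**Figure D4:**
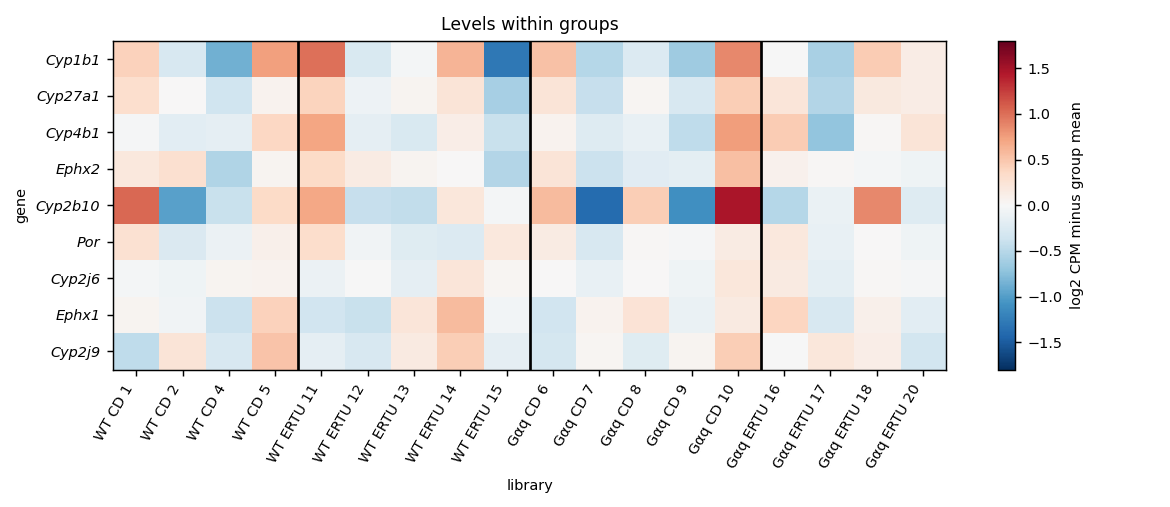
Log2 CPM minus the group mean (colour) for the 9 genes (rows) in the 18 libraries (columns, separated by group). Cyp1b1, Cyp27a1, Cyp4b1 and Ephx2 shared red columns, as in Gαq CD 10 and WT ERTU 11, and blue ones, as in WT ERTU 15, whereas Cyp2j6 stayed near 0.

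Among the Gαq libraries, levels of most of these genes ran against the level of Gnaq, a pattern seen only after the values were examined. From the highest to the lowest Gnaq, the Gαq CD libraries were 9, 7, 8, 6 and 10, at 11670, 9701, 8045, 6304 and 1641 CPM. In that order Cyp1b1 stood at 21, 22.9, 27.5, 47.1 and 59.2 CPM and Cyp4b1 at 18.7, 22, 23.4, 27.0 and 43.2 CPM, a rise at every step. Cyp2b10 stood at 1.25, 1.02, 3.89, 4.24 and 7.97 CPM, with 1 step out of order.

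Over all 9 Gαq libraries, with each diet centred on its mean, the Pearson r with log2 Gnaq was -0.89 for Cyp4b1 and Cyp1b1, -0.87 for Cyp2j6, -0.84 for Cyp27a1, -0.81 for Ephx2, -0.75 for Cyp2b10, -0.63 for Por, -0.44 for Cyp2j9 and -0.4 for Ephx1. The Spearman rho was -0.88 for Cyp4b1 and Cyp1b1, -0.65 for Cyp2b10 and -0.58 for Ephx2. Thus 6 of the 9 genes were at or below -0.7, where 6.98% of 14417 genes at 1 CPM or more were, around a median of 0.01. Several of these genes moved together within groups, so the 6 are not independent of one another. Without the 2 libraries farthest from the median Gnaq, r was -0.96 for Cyp4b1, -0.94 for Cyp27a1, -0.87 for Cyp1b1, -0.47 for Ephx2 and -0.42 for Cyp2b10. Without 1 library r for Ephx2 reached as near to 0 as -0.38, so the relation of Cyp2b10 and Ephx2 rested in part on single libraries. For Cyp2j9 r was 0.73 without those 2 libraries, the opposite sign. In the 9 WT libraries r was between -0.51 and 0.27. Gnaq was lower in the Gαq ERTU libraries (2236 to 5207 CPM) than in 4 of the 5 Gαq CD libraries, and its part in the ERTU comparison within Gαq was not tested.

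**Figure D5:**
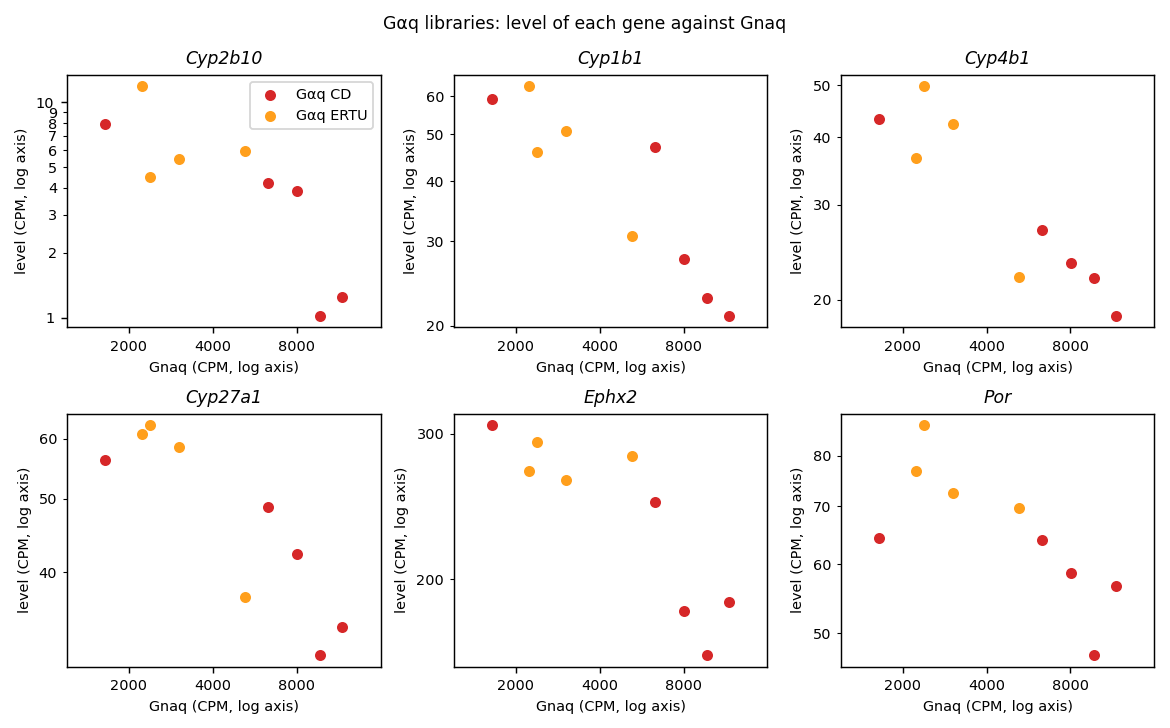
Level of 6 genes (vertical, CPM, log axis) against Gnaq (horizontal, CPM, log axis) in the 5 Gαq CD and 4 Gαq ERTU libraries, 1 point per library. Cyp4b1 fell from 43.2 CPM at the lowest Gnaq to 18.7 CPM at the highest among the CD libraries, and the Por points of ERTU lay above all those of CD.

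Marker genes of cell types were compared between genotypes too. Of 10 fibroblast markers, 8 were higher in Gαq (edgeR, adjusted), with a summed level of 3050 to 4600 CPM in Gαq libraries against 1620 to 3270 CPM in WT libraries. In Gαq, 4 of 10 cardiomyocyte, 3 of 10 endothelium and 2 of 10 mural cell markers were lower, and 1 mural cell, 1 macrophage, 1 liver and 1 atrium marker were higher. These counts are from the model with both diets, where 19.6% of all genes tested were called. Fibroblast markers stood farthest above that share, and lists with 1 to 3 markers called are not read as a change. None of 7 fat, 7 red blood cell and 1 lung and airway markers tested was called. On CD alone, where 8.1% of all genes were called, 1 of the 7 red blood cell markers was called lower. All 7 were below 0 (median log2 change -0.67). With ERTU no marker of these lists was called. Summed fat markers lay between 82.6 and 260 CPM in Gαq ERTU and between 33.5 and 142 CPM in Gαq CD, and atrium markers between 173 and 693 and between 78.6 and 1030 CPM. The mean centred level of a marker list went with Ephx1 (cardiomyocytes r = -0.76, atrium r = 0.71, over 18 libraries, and -0.53 and 0.54 without the 2 libraries farthest in Ephx1), and for Cyp2b10 r was between -0.07 and 0.49 over the 9 lists with enough genes. Without the 2 libraries farthest in Cyp2b10 it was 0.66 for macrophage and 0.61 for red blood cell markers, against 0.49 and 0.3 over all libraries. The part of these cells in the levels of the 9 genes was not tested.

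The genes whose levels were most like those of Cyp2b10 were found among 14417 genes at 1 CPM or more, by Pearson r of log2 CPM over the 18 libraries, which include the difference between genotypes. They were Acsm5 (0.969), Gmnn (0.945), Dgat2 (0.937), Apbb1 (0.923) and Acad11 (0.922). Acsm5 is a mitochondrial acyl-CoA ligase, Dgat2 makes triglycerides, Acad11 is an acyl-CoA dehydrogenase and Gmnn restrains DNA replication. With the group means subtracted they were Ifitm10 (0.858), Zbtb16 (0.841), Acsm5 (0.84), St3gal1 (0.828) and Cnmd (0.827). Acsm5 was on both lists. Acsm5, Dgat2, Apbb1 and Ifitm10 lie on chromosome 7, as does Cyp2b10, and the other genes named here lie on other chromosomes. The part of chromosome position in these values was not tested. Zbtb16 encodes a zinc finger repressor and averaged 137 CPM, and Acsm5 averaged 13.8 CPM.

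The pathways around P450 enzymes were covered by 9 lists of 167 further genes, of which 97 were tested. By genotype 32 of these passed (edgeR, adjusted), 10 higher and 22 lower, a share of 33% beside 19.6% of all genes, and the median log2 change was -0.07 beside 0.004. On CD 13 passed (2 higher, 11 lower), 13.4% beside 8.1% of all genes. On ERTU 12 passed (4 higher, 8 lower), 12.4% beside 8.17% of all genes. None passed in the 4 comparisons of diet. The lists, like the 9 genes, were written with earlier results of these data known. Counts and log2 changes by list below come from the model with both diets, where 19.6% of all genes passed. A count near that share is not read as a result.

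Among other P450s, 3 drug-metabolizing genes were tested and 0 passed. Cyp2e1, which oxidizes ethanol and is also made in fat, reached 76.2 CPM and averaged 26.5 ± 33.3 CPM (SD, n = 4) in Gαq ERTU. Of 5 fatty acid hydroxylases tested, Cyp4f15 fell by 3.17 ± 0.63 (SE) on the log2 scale in Gαq over both diets, and Cyp4v3 rose by 0.35 ± 0.12. The mean of Cyp4f15 was 0.896 CPM in WT CD and 0.0867 CPM in Gαq CD, and 5 libraries had 0 counts. Of 7 steroid and vitamin P450s, Cyp26b1, which breaks down retinoic acid, fell by 1.73 ± 0.37, from 34.8 ± 31.7 CPM (SD, n = 4) in WT CD to 8.9 ± 5.1 CPM (SD, n = 5) in Gαq CD. Cyp39a1, an oxysterol hydroxylase, rose by 0.48 ± 0.11, and Cyp20a1 rose by 0.27. The 1 gene tested from the list of epoxygenases was Cyp2u1, which hydroxylates arachidonic acid, and it was 0 ± 0.13 apart.

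Of 9 electron donors and partners of P450s, Fdx1 and Fdxr, which carry electrons to mitochondrial P450s, fell by 0.3 and 0.36, and Pgrmc2 and Cyb5r3 rose by 0.41 and 0.27. Of 12 genes of haem synthesis and breakdown, 5 fell and 1 rose, beside 19.6% of all genes called. The synthesis enzymes Alad (fell by 0.57 ± 0.08, SE) and Uros (fell by 0.26) were lower, and the haem oxygenase Hmox2 rose by 0.28.

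Of 16 nuclear receptors and AhR regulators, 3 passed, near the share of 19.6% of all genes. They were Rxrg (fell by 0.46), Ppard (fell by 0.3) and Rxra (fell by 0.25). CAR (Nr1i3) had too few counts to be tested, at 0.126 to 0.753 CPM, and the drug receptor Nr1i2 had 5 counts in all libraries. Of 27 conjugation enzymes and efflux pumps, 8 fell and 2 rose, beside 19.6% of all genes called. Nqo1, a quinone reductase, fell by 1.09 ± 0.13 (SE), from 91.2 ± 20.8 CPM (SD, n = 4) in WT CD to 37.6 ± 7.48 CPM (SD, n = 5) in Gαq CD. The glutathione transferase Gstk1 fell by 0.78 ± 0.1 and Gsta1, which has near-identical copies and averaged 1.01 CPM in WT CD, by 2.63 ± 0.37, while the pump Abcc3 rose by 0.6. Of 17 genes of arachidonate release and its other oxygenases, 2 rose and 2 fell, near the share of all genes. The phospholipase Pla2g4a, which frees arachidonic acid, rose by 0.83 ± 0.21 and the prostaglandin synthase Ptges by 0.64 ± 0.2, whereas Ptgds fell by 0.71 ± 0.22 and Ptges2 by 0.47.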

How the data were processed

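RNA from LV of 18 mice was sequenced by the authors as poly(A)-selected, paired-end libraries. The authors aligned reads to mm10 with STAR 2.6.0c and deposited raw counts of uniquely aligned pairs for each Ensembl gene from featureCounts (Subread 1.6.2, per the labels). A second deposited table holds log2-like values from the variance-stabilizing transformation of DESeq2, used only as an alternative. The methods of the study state that pairs on the same strand were counted over nuclear-encoded genes of the Ensembl annotation. Symbols came from GENCODE M21 on the same build.

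Counts were analysed with edgeR 4.0.16 in R 4.3.3. Genes were kept by filterByExpr, scaled by TMM and tested by the quasi-likelihood F test, with Benjamini-Hochberg adjustment over 16270 genes and a threshold of 0.05. Genotype and diet came from a model with both factors, and the pairwise comparisons and the interaction from a model with 1 mean per group. Log2 CPM used a prior count of 2. Depth was 15383566 to 20908363 counts per library. Labels name mice, so p-values measure the spread between mice. The steps were tested on simulated data.

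The 9 genes and all lists were chosen with earlier results of these data known. Named besides the 9 genes were up to 4 genes per pathway list with the smallest p by genotype among those called, the 5 genes most like Cyp2b10 by each measure, and Gnaq, except 1 gene that is not reported here. A gene named outside this rule (Cyp2d22, Cyp2e1, Cyp2u1, Ahr, Cyp1a1, Nr1i2, Nr1i3 and P450 genes with few or 0 counts) was named after its values were seen. Alternatives were RLE size factors, no filter, a filter at a mean of 1 CPM, DESeq2 1.42.0, fits of only the groups compared, the deposited log2 values and leaving out each library.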

Additional observations from a re-analysis of the deposited data

Results flagged for a closer look

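One value was set apart by its distance from the other libraries of its group. Cyp27a1 in Gαq ERTU library 17 stood at 37.1 CPM while the other 3 libraries lay between 58.6 and 62.5 CPM, a gap of 0.848 of the range of the group in CPM. Of 36 groups of 4 or 5 libraries examined, 1 was set apart in this way, and chance gives about 1 in 20, or 1.8 here. The same library was also lowest of its group for Cyp1b1 (30.7 CPM) and Cyp4b1 (22.1 CPM) and highest for Gnaq (5207 CPM). The cause was not tested.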

How the results depend on the processing

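Depth limits Cyp2b10 in Gαq (21 counts at the lowest) and Cyp2j9 (40 counts at the lowest). Of the 9 genes, 4 were called by genotype with no filter on low counts against 2 (Cyp4b1 and Cyp1b1 were added), 3 by DESeq2 (Cyp4b1 added) and 2 to 3 when 1 library was left out (Cyp1b1 or Cyp4b1 added). In Gαq on CD 1 was called with only the groups compared, and 1 to 3 when 1 library was left out. In Gαq on ERTU 2 were called by DESeq2, 2 with only the groups compared, and 1 to 2 with 1 library left out. The share of all genes called in the main fits was 19.6% by genotype, 8.1% on CD and 8.17% on ERTU. Shares under most other settings are not given here, so nothing is read from these counts. Pathway genes called in Gαq on CD numbered 13, and 7 to 15 with 1 library left out, with 7 without WT CD library 1, 8 without WT CD library 2 and 7 without Gαq CD library 7. Over all genes, ERTU in Gαq called 5 by DESeq2 against 1, and 0 without the filter, in the fit of its own 2 groups and in each fit with 1 library left out, diet called 2 by DESeq2 against 0, and Gαq on CD called 788 without WT CD library 1 and 851 without WT CD library 2, against 1318. The effect of ERTU on the 9 genes passed in none of 162 other fits (smallest adjusted p 0.557) and none of 648 fits with 1 library left out (smallest 0.268). With 1 library left out, small uncalled ERTU changes crossed 0. In WT these were Cyp2j6 (-0.06 to 0.04), Cyp2j9 (-0.25 to 0.09), Cyp1b1 (-0.15 to 0.42), Cyp27a1 (-0.22 to 0.01) and Ephx1 (-0.24 to 0.08), in Gαq Cyp2j6 (-0.07 to 0.04) and Cyp2j9 (-0.15 to 0.06), over both genotypes Cyp2j6 (-0.04 to 0.02), and in the interaction Cyp2j6 (-0.08 to 0.04), Cyp2j9 (-0.16 to 0.18) and Cyp4b1 (-0.08 to 0.32). The r of Cyp2j9 with Gnaq in Gαq, left out in this way after the data were seen, ran from -0.65 to 0.52, the latter without Gαq CD library 10. No paired analysis was possible because libraries of different groups share no replicate number in the tables. The cause of these shifts was not tested.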

Other observations

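The genes that varied most like the others of the 9 were looked up after their values were seen, by Pearson r of log2 CPM with the group means subtracted, over 18 libraries. For Cyp1b1 they were Spock2 (0.965), Slc10a6 (0.951), Lrg1 (0.948), Pkp4 (0.946) and Il4ra (0.944). For Ephx2 they were Elmod3 (0.963), Xpc (0.963), Pnpla2 (0.953), Abhd1 (0.953) and Retsat (0.952). Pnpla2 encodes the fat triglyceride lipase and averaged 595 CPM, and Lrg1, a secreted glycoprotein, averaged 39.1 CPM. These values are descriptions and share libraries and scaling.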
